A study of Mus musculus with 18 samples.

Results

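The 10 melanocyte genes Tyr, Tyrp1, Dct, Pmel, Mlana, Mitf, Slc45a2, Sox10, Kcnj13 and Trpm1 were followed in vestibular organs, which sense balance in the inner ear, from Igf1 null (Igf1 -/-) and wild-type (Igf1 +/+) mice. They were taken as a named list, all 10 were measured, and they are 10 of the 19938 genes in the series. The groups were Igf1 null and wild type at E18.5, a late embryonic stage, at P15, a young mouse, and at P90, an adult, with 3 arrays in each of the 6 groups and 18 arrays in all. Null mice carry no working Igf1, which encodes a secreted hormone-like growth factor, in any cell. All groups shared a hybrid Mf1 and 129/sv background, perfusion with paraformaldehyde and Trizol extraction. The labels name each array a biological replicate without saying whether it holds 1 animal or several, so p-values here rest on array-to-array spread, which may be technical. As given below, all E18.5 arrays carried male and female signals and so hold RNA of more than 1 animal. Their spread is not that between single animals. The coat colour of the mice, and which Tyr allele they carried, is stated by no label. The description field of the wild-type arrays at P15 and P90 names the other genotype, whereas their titles and genotype field, which were used, name wild type.

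Melanocytes are neural crest cells that enter the inner ear during development. In the cochlea they become the intermediate cells of the stria vascularis, and in the vestibular organ they lie under the dark cells, the epithelium that secretes potassium into the endolymph. They make melanin from tyrosine inside melanosomes, and they also carry potassium channels. Sox10 activates Mitf, and Mitf acts on the genes of melanin synthesis and of the melanosome through short E-box and M-box elements in their promoters.

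Each gene was read by 1 probe set, a group of short probes, and positions are those of GRCm38.p6. The enzymes are Tyr, tyrosinase, the rate-limiting step of melanin synthesis (chr7:87424771-87493512), Tyrp1, tyrosinase-related protein 1 (chr4:80834123-80851736), and Dct, dopachrome tautomerase, an early melanoblast gene (chr14:118012790-118052246). The melanosome proteins are Pmel, which forms the fibrils on which melanin is laid down (chr10:128695888-128720238), Mlana, a small membrane protein of early melanosomes (chr19:29697541-29708447), and Slc45a2, a melanosome transporter (chr15:11000721-11029233). The transcription factors are Mitf (chr6:97807002-98021360) and Sox10 (chr15:79154913-79164490), the second of which glia also use. The channels are Kcnj13, the potassium channel Kir7.1, also of choroid plexus and retinal pigment epithelium (chr1:87384577-87394729), and Trpm1, melastatin, also of retinal bipolar cells (chr7:64153835-64269772). Mitf alone had more than 1 probe set, and the brighter of its 2 was used.

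Upstream sequence is shown for the 5 genes whose window held the core of the M-box, TCATGTG, because the levels of several of them stepped down with age. RefSeq promoters of GRCm38.p6 were given for 6 of the 10 genes, and the 250 bases before each start were searched on both strands. The core was found for 5 of the 6, Tyr, Tyrp1, Dct, Trpm1 and Kcnj13, and for 3.72% of the 27025 genes in that table. The forward copies in Tyr, Tyrp1 and Dct also share the bases next to the core, as GTCATGTGCT, a run held by 3 of the 6 and by 0.144% of all genes, and it was chosen because these 3 share it. The 3 Mitf windows and the second Trpm1 window held no copy of the core. A match of letters describes these windows and is no evidence of binding. Each sequence is written 5′ to 3′ along the gene, ends at the base before the start, and has the core in capitals on either strand.
Tyr, chr7:87493513-87493762, minus strand: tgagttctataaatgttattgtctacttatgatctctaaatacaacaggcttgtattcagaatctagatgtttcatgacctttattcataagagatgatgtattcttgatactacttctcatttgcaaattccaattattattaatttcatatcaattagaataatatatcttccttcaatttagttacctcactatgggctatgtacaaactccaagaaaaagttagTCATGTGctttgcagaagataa
Tyrp1, chr4:80833963-80834212, plus strand: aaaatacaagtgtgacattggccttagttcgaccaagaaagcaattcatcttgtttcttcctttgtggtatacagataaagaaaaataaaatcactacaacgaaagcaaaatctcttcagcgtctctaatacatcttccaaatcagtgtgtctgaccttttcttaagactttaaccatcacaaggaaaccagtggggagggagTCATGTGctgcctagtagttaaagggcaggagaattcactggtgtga
Dct, chr14:118052247-118052496, minus strand: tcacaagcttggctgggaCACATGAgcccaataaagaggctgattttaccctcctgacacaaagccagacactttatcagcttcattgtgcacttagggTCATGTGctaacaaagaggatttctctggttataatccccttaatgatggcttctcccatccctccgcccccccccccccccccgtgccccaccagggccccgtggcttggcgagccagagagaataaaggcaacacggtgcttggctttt
Trpm1, chr7:64153585-64153834, plus strand: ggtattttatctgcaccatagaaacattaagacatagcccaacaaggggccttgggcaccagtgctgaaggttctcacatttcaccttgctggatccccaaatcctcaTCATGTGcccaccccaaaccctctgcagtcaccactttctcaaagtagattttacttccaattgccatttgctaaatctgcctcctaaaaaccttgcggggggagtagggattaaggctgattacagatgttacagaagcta
Kcnj13, chr1:87394730-87394979, minus strand: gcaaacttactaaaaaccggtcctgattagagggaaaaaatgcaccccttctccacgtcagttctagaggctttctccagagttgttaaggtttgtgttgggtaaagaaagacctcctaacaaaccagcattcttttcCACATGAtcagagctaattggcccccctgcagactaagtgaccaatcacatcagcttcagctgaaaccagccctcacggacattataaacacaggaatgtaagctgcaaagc
The core began 22 bases before the start in Tyr and 47 bases before it in Tyrp1. Starts are those of the promoter entries, and that of Tyrp1 lies inside the gene span given above, which begins at 80834123. Its core lies inside that span too, and a Mitf window likewise ran past the beginning of the Mitf span. In Dct a forward copy began 151 bases and a reverse copy 232 bases before the start. Trpm1 had it at 142 bases, and Kcnj13 had a reverse copy at 112 bases.

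Levels are quantile-normalized log values of unstated base, and differences are in the same log units with the standard error (SE) of the limma fit. With base e, which the range of the values makes likely, a difference of 1 is 2.72-fold, and with base 2 it is 2-fold. A gene was called when its Benjamini-Hochberg adjusted p over the 19938 genes was under 0.05 in limma. Levels of different genes come from different probes and are not compared. All 10 hair cell genes and all 9 otoconia genes of the marker lists had a highest group mean above 3.39. That level, the highest of the Y-linked genes in the 2 arrays with least Y-linked signal, serves as a rough guide to dim genes. It came from P15 null 2, and the other array, P90 null 1, reached 2.18, so the guide may be set high. In 19.8% of all genes the highest group mean lay under it, so reaching it alone does not show that a tissue was present. Trpm1 alone of the 10 melanocyte genes lay under it in every group (highest group mean 3.2). Igf1 itself differed between null and wild type by -0.43 ± 0.12 at E18.5 (limma adjusted p = 0.16), -0.41 ± 0.12 at P15 (0.48) and -0.11 ± 0.12 at P90 (0.76), and no label says where its probes lie relative to the deletion. On the third principal component, E18.5 null 2 and 3 (16.3 and 18.8) lay apart from null 1 of that age (-9.40), P90 wild type 1 and 2 (13.5 and 17.0) lay apart from wild type 3 (-12.0), and P90 null 1 was at the other end (-25.0). At P90 Xist was 7.42 to 7.91 in null arrays and 1.86 to 3.33 in wild-type arrays, and the mean of the Y-linked genes was 2.00, 5.44 and 5.49 in null against 6.12 to 6.32 in wild type. Sex therefore differed between the genotypes at P90, where null 2 and 3 carried both signals. All E18.5 arrays also carried both (Xist 7.31 to 8.01, Y-linked mean 5.23 to 5.95), so arrays with both hold RNA of male and female animals. At P15 null 2 had less Y-linked signal (mean 3.29, against 5.56 to 6.31 in the other P15 arrays). Null 3 and wild type 2 of P15 had less Xist (4.09 and 5.34, against 7.48 to 8.09). Sex content was therefore uneven at P15 too. A sex score, Xist minus the mean of the Y-linked genes, was positive in every P90 null array and negative in every P90 wild-type array. As a covariate it therefore leaves little power to find a genotype difference at P90, and sex and genotype cannot be told apart there. In whole organs, fewer melanocytes and less RNA in each melanocyte cannot be told apart.

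**Figure D1:**
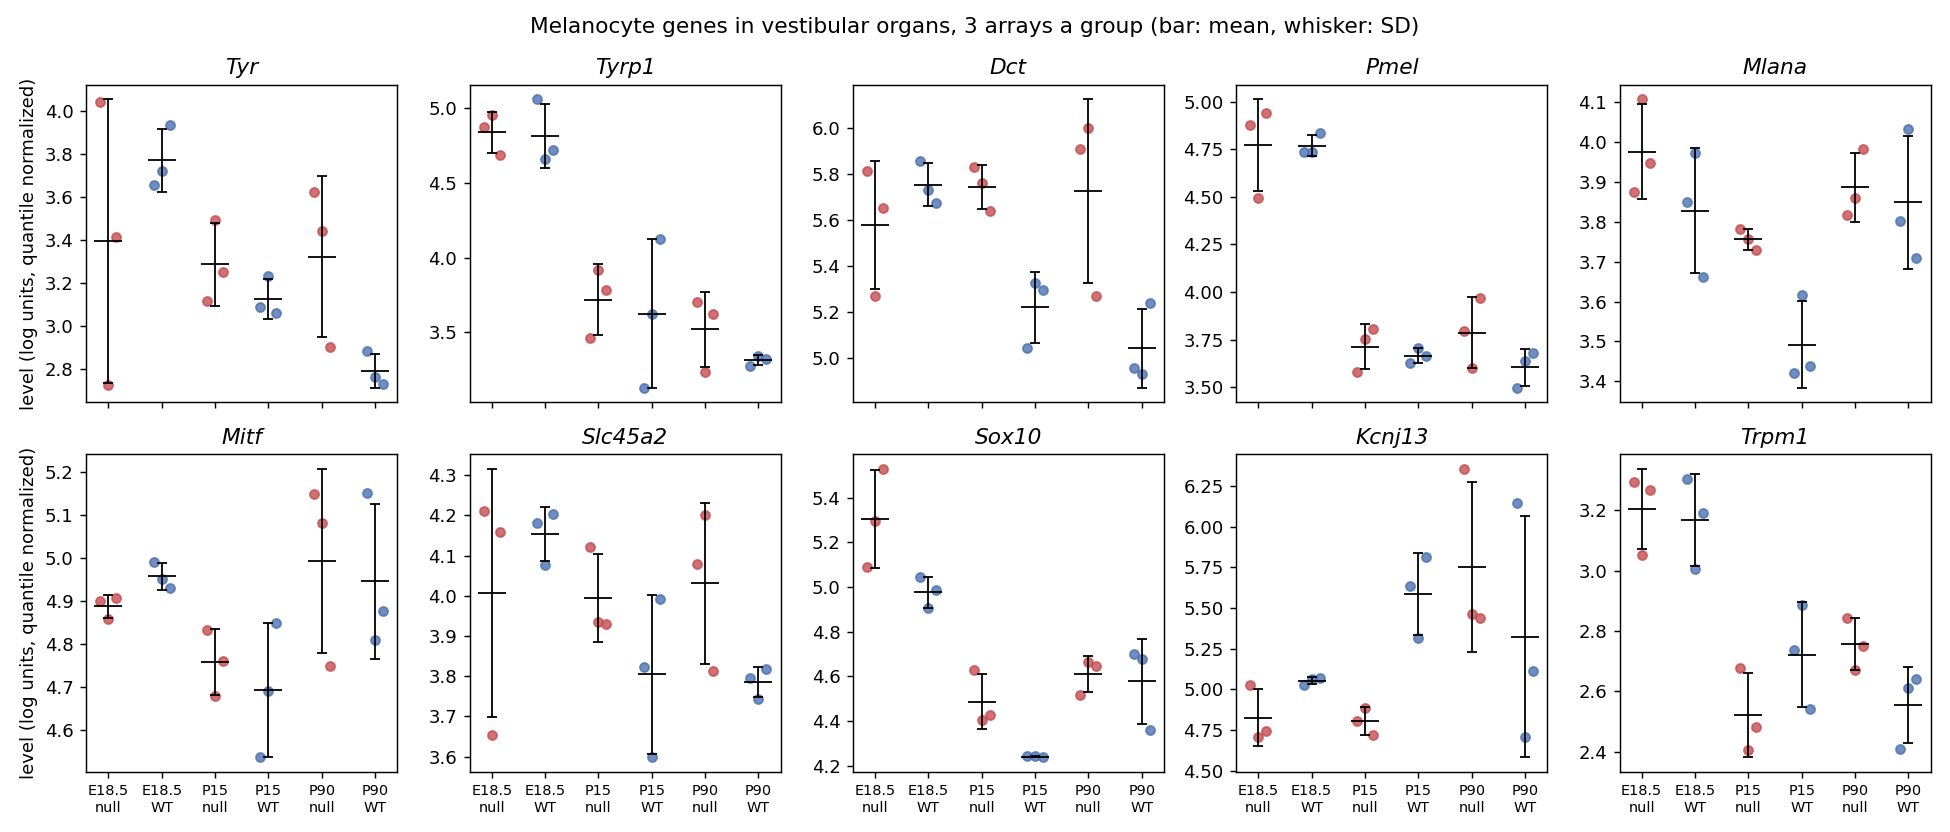
Level of each of the 10 genes in log units (vertical axis, a separate scale for each gene) in the 3 arrays of each group, null left of wild type (WT) at each age, with the group mean as a bar and the SD as a whisker. Pmel, Tyrp1, Trpm1 and Sox10 sit highest at E18.5 in both genotypes, whereas the 3 null arrays of Dct at P90 (5.27 to 6.001) lie above the 3 wild-type arrays (4.93 to 5.24).

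Between E18.5 and P15, 4 melanocyte genes fell in both genotypes and 3 more passed in wild type alone. In null 4 of the 10 genes fell and 0 rose, where 20.5% of all genes fell and 20.3% rose. In wild type 7 of the 10 fell and 0 rose, where 21.9% of all genes fell and 19.7% rose. The median difference, P15 minus E18.5, was -0.17 in null, against -0.49 in wild type, and the medians over all genes were -0.04 and -0.05. The null median was 0.13 without normalization between arrays, and its lowest value on leaving out 1 array was -0.32. The genes called in both were Pmel, Tyrp1, Sox10 and Trpm1.

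Pmel, the fibril protein, had the smallest p of the 10. In null its levels were 4.88, 4.49 and 4.94 at E18.5, 3.58, 3.75 and 3.80 at P15, then 3.79, 3.60 and 3.97 at P90. In wild type they were 4.74, 4.73 and 4.83 at E18.5, 3.62, 3.71 and 3.67 at P15, then 3.50, 3.64 and 3.68 at P90. Every E18.5 array lay above every later one, and the genotypes overlapped at each age. Pmel fell by 1.06 (SE 0.11, limma adjusted p = 2.5e-06) in null and by 1.10 (SE 0.11, limma adjusted p = 1.46e-06) in wild type, a 2.88-fold and a 3.01-fold change with base e and a 2.08-fold and a 2.15-fold change with base 2. P90 minus P15 was 0.08 ± 0.11 in null and -0.06 ± 0.11 in wild type, and neither passed.

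Tyrp1, which stabilises tyrosinase and shapes eumelanin, behaved much as Pmel in this step. Its levels in null were 4.87, 4.96 and 4.69 at E18.5, 3.46, 3.92 and 3.78 at P15, then 3.70, 3.23 and 3.62 at P90. In wild type they were 5.06, 4.66 and 4.72 at E18.5, 3.13, 3.63 and 4.12 at P15, then 3.28, 3.34 and 3.32 at P90. E18.5 again stood clear of both later ages, and wild type at P15 was the most scattered group. Tyrp1 fell by 1.12 (SE 0.20, limma adjusted p = 0.00036) in null and by 1.19 (SE 0.20, limma adjusted p = 0.0002) in wild type.

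Trpm1, a cation channel whose transcript is abundant in pigment cells, was dim throughout. It had 3.29, 3.05 and 3.27 at E18.5, 2.68, 2.41 and 2.48 at P15, then 2.84, 2.67 and 2.75 at P90 in null. It had 3.30, 3.01 and 3.19 at E18.5, 2.74, 2.89 and 2.54 at P15, then 2.41, 2.61 and 2.64 at P90 in wild type. The E18.5 arrays of each genotype lay above its later ones. Trpm1 fell by 0.68 (SE 0.11, limma adjusted p = 0.00016) in null and by 0.45 (SE 0.11, limma adjusted p = 0.0045) in wild type, and both calls ended without normalization between arrays (-0.41 in null and -0.34 in wild type). Of the 8 measured genes of retinal bipolar and photoreceptor cells, which also use Trpm1, 2 reached a group mean above 3.39.

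Sox10, the neural crest factor upstream of Mitf, was the fourth gene that fell in both genotypes. In null it had 5.09, 5.30 and 5.53 at E18.5, 4.63, 4.40 and 4.43 at P15, then 4.52, 4.66 and 4.65 at P90. In wild type it had 5.04, 4.90 and 4.98 at E18.5, 4.24, 4.24 and 4.24 at P15, then 4.70, 4.68 and 4.36 at P90. The step from E18.5 to P15 was -0.82 ± 0.11 (limma adjusted p = 2.5e-05) in null and -0.74 ± 0.11 (limma adjusted p = 6.3e-05) in wild type. Sox10 is shared with glia, whose listed genes were on average higher at P15 than at E18.5. The mean level of the 12 measured Schwann and satellite glia genes was 5.68 to 5.88 at P15 against 5.42 to 5.51 at E18.5 in null, and 5.61 to 5.79 against 5.40 to 5.52 in wild type. In that list 6 genes rose and 1 fell in null (20.3% and 20.5% of all genes), and 5 rose and 2 fell in wild type (19.7% and 21.9%). The genes of the list differed, with steps of 1.41 in null and 1.69 in wild type for Mbp and -0.92 and -1.24 for Ncmap. Of the 10 genes of a separate oligodendrocyte list, 7 rose and 1 fell in null, and 8 rose and 0 fell in wild type. The part of glia in the Sox10 levels was not tested.

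The other 3 genes called in wild type, Dct, Tyr and Mlana, did not pass in null. The difference between genotypes in how the ages differed was tested with an F-test, and 0 of the 10 genes passed (limma, 0.256% of all genes passed), with 2 at an unadjusted p under 0.05, Dct and Kcnj13. The step of Dct was 0.17 ± 0.17 in null, and in wild type it fell by 0.53 (SE 0.17, limma adjusted p = 0.021). For Tyr the step was -0.11 ± 0.25 in null and -0.64 ± 0.25 (limma adjusted p = 0.047) in wild type. With the 4 arrays of the third component left out (P90 wild type 1 and 2 with E18.5 null 2 and 3), the null step of Tyr was -0.76 and passed (limma adjusted p = 0.033), with 1 null array left at E18.5, taken to vary like the other groups. For Mlana it was -0.22 ± 0.10 (limma adjusted p = 0.095) in null and -0.34 ± 0.10 (limma adjusted p = 0.014) in wild type. The 3 wild-type calls ended without normalization between arrays (-0.49 for Tyr, -0.36 for Dct and -0.15 for Mlana), that of Tyr also with a sex score (-0.59), and all depended on single arrays. Tyr lost its call (adjusted p 0.066 to 0.14) when any 1 of the 6 arrays was left out, Dct when wild type 1 of E18.5 (-0.48) or of P15 (-0.45) was, and Mlana when wild type 2 of E18.5 (-0.26), 1 of P15 (-0.30) or 3 of P15 (-0.31) was. Without P15 wild type 1 the count of called genes was 4 in place of 7.

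Slc45a2, Mitf and Kcnj13 did not pass in either genotype. The step of Slc45a2 was -0.013 ± 0.14 in null and -0.35 ± 0.14 (limma adjusted p = 0.057) in wild type. For Mitf it was -0.13 ± 0.11 in null and -0.26 ± 0.11 (limma adjusted p = 0.068) in wild type, and for Kcnj13 -0.019 ± 0.29 in null and 0.53 ± 0.29 (limma adjusted p = 0.16) in wild type. In wild type all 3 passed under some alternatives: Slc45a2 (-0.44 to -0.33) with array medians subtracted, with only the arrays compared, with array weights, without P15 wild type 3 and with either handling of the 4 arrays above, Mitf (-0.34 to -0.28) with medians subtracted, with weights and without P15 wild type 3, and Kcnj13 as deposited (0.79) and with only the arrays compared (limma adjusted p = 0.015). Mitf, whose product drives the pigment genes, had 4.90, 4.86 and 4.91 at E18.5, 4.83, 4.68 and 4.76 at P15, then 5.15, 5.08 and 4.75 at P90 in null. In wild type it had 4.99, 4.95 and 4.93 at E18.5, 4.54, 4.69 and 4.85 at P15, then 5.15, 4.81 and 4.88 at P90. Its whole range over the 18 arrays, 4.54 to 5.15, was narrow beside those of Pmel or Tyrp1.

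**Figure D2:**
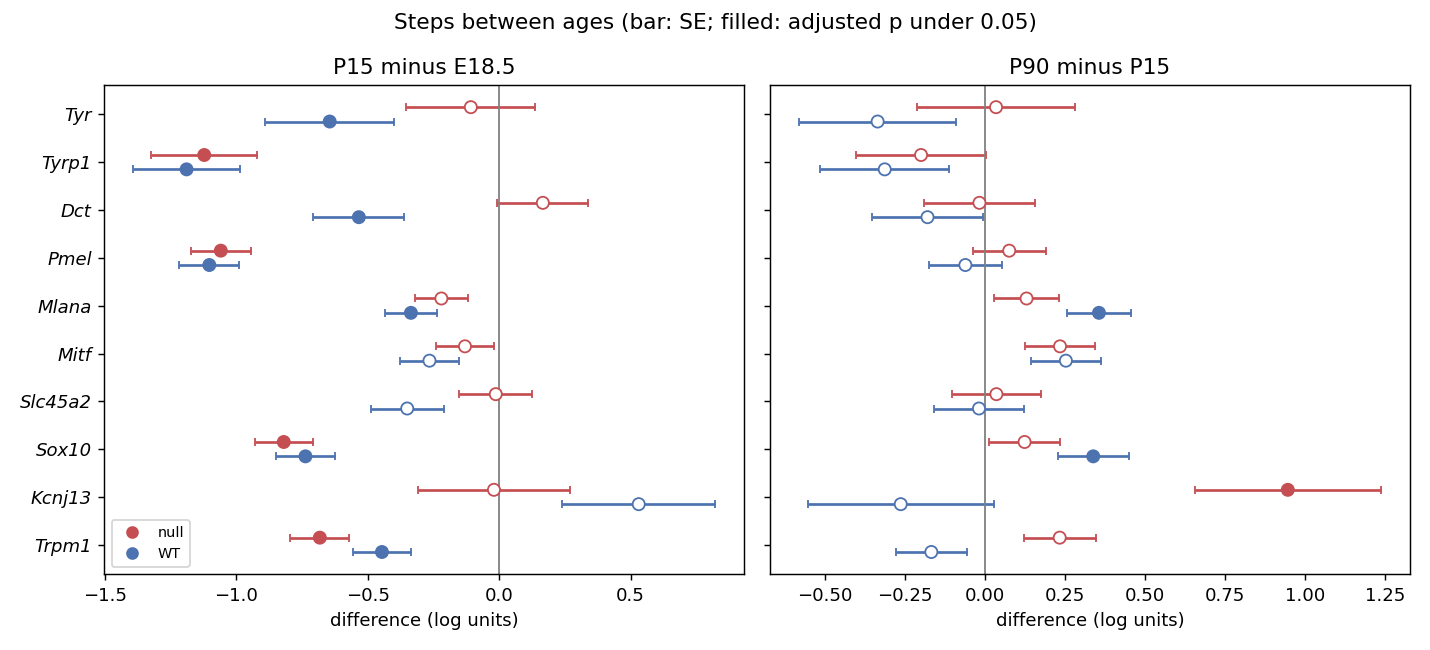
Difference between neighbouring ages for each gene in log units (horizontal axis), P15 minus E18.5 on the left and P90 minus P15 on the right, for null above wild type (WT), with the SE as a bar and filled points for an adjusted p under 0.05. Pmel and Tyrp1 lie near -1.1 in both genotypes on the left, whereas Dct lies at 0.17 in null and -0.53 in wild type.

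From P15 to P90 little of the list passed. In null 1 gene, Kcnj13, rose (6.12% of all genes rose and 6.83% fell), and in wild type 2 genes, Mlana and Sox10, rose (8.08% of all genes rose and 9.78% fell), and 0 fell in either genotype. Mlana rose by 0.36 ± 0.10 (limma adjusted p = 0.026) and Sox10 by 0.34 ± 0.11 (limma adjusted p = 0.048) in wild type. The Sox10 call ended without any 1 of the wild-type arrays other than P90 replicate 3 (0.28 to 0.34), and the Mlana call without P15 wild type 1 (0.32) or 3 (0.33) or P90 wild type 2 (0.26). Leaving out the same 4 arrays gave 0.12 for Sox10 and 0.22 for Mlana, neither called. In null the count of called genes was 0 without any 1 of the P15 arrays or without P90 null 1, and 2 without P90 null 3.

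Between genotypes, 0 of the 10 genes passed at any age. In limma, 0.0802% of all genes passed at E18.5, 0.015% at P15 and 0.296% at P90. At an unadjusted p under 0.05 there was 1 of the 10 at E18.5 (Sox10), 4 at P15 (Dct, Mlana, Sox10 and Kcnj13) and 2 at P90 (Tyr and Dct), where 12.5%, 6.97% and 11.1% of all genes had such a p. The direction of the values differed by age. At E18.5 5 of the 10 genes had a positive difference, null minus wild type (median -0.03, against -0.02 over all genes), at P15 8 did (0.13, against 0.01), and at P90 all 10 did (0.20, against 0.01). Of all genes 45.6%, 53.7% and 53.6% were positive at these ages. With a sex score as a covariate the P90 median of the 10 was 0.10, and Kcnj13 (-0.28) and Mitf (-0.040) were negative.

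Dct, the early melanoblast enzyme, gave the smallest p of the 10 at P15 and at P90. Its levels at P15 were 5.83, 5.76 and 5.64 in null and 5.04, 5.32 and 5.29 in wild type. At P90 they were 5.91, 6.001 and 5.27 in null and 4.96, 4.93 and 5.24 in wild type. At both ages the 3 null arrays lay above the 3 wild-type arrays, at P90 by 0.03 between the nearest pair (null 3 and wild type 3). The difference was 0.52 ± 0.17 at P15 (limma adjusted p = 0.52, unadjusted 0.0084) and 0.69 ± 0.17 at P90 (limma adjusted p = 0.13, unadjusted 0.0012), the second a 1.99-fold change with base e and a 1.61-fold change with base 2. At E18.5, where the levels were 5.81, 5.27 and 5.65 in null and 5.86, 5.73 and 5.68 in wild type, it was -0.18 ± 0.17. At P90 Dct passed without null 3 (0.91, limma adjusted p = 0.011) or without wild type 3 (0.78, limma adjusted p = 0.042), and with array weights (0.92, limma adjusted p = 0.0092). These 2 arrays are the nearest pair, so leaving out either one widens the gap. Without null 1 Dct differed by 0.59 (limma adjusted p = 0.43), without null 2 by 0.55 (0.36), and with the sex score by 0.54 (0.98).

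Tyr, the enzyme that starts melanin synthesis, had 4.04, 2.72 and 3.41 at E18.5, 3.11, 3.49 and 3.25 at P15, then 3.62, 3.44 and 2.90 at P90 in null. In wild type it had 3.65, 3.72 and 3.93 at E18.5, 3.09, 3.23 and 3.06 at P15, then 2.88, 2.76 and 2.73 at P90. At E18.5 the null arrays spanned the whole wild-type range and beyond, and at P90 they lay above it, null 3 by 0.02. The difference at P90 was 0.53 ± 0.25 (limma adjusted p = 0.45), at P15 0.16 ± 0.25 and at E18.5 -0.38 ± 0.25. The group means at P15 (3.29 in null and 3.13 in wild type) and at P90 (3.32 in null and 2.79 in wild type) lay under the guide to dim genes, so these differences are between levels under that guide. E18.5 null 2, the lowest array of the series for Tyr, was also the lowest of its age for Dct, Pmel and Slc45a2.

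Slc45a2, the melanosome transporter, had 4.21, 3.65 and 4.16 at E18.5, 4.12, 3.93 and 3.93 at P15, then 4.08, 4.20 and 3.81 at P90 in null. In wild type it had 4.18, 4.08 and 4.20 at E18.5, 3.82, 3.60 and 3.99 at P15, then 3.79, 3.74 and 3.82 at P90. The genotypes overlapped at every age. The differences were -0.15 ± 0.14, 0.19 ± 0.14 and 0.25 ± 0.14 from E18.5 to P90, and the 95% interval at P90 ran from -0.05 to 0.54.

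Mlana had 3.87, 4.11 and 3.95 at E18.5, 3.78, 3.76 and 3.73 at P15, then 3.82, 3.86 and 3.98 at P90 in null. In wild type it had 3.85, 3.97 and 3.66 at E18.5, 3.42, 3.62 and 3.44 at P15, then 3.80, 4.03 and 3.71 at P90. Only at P15 did the genotypes separate, with null above wild type by 0.26 ± 0.10 (limma adjusted p = 0.60, unadjusted 0.019). Sox10 was likewise without overlap at P15 (0.25 ± 0.11, limma adjusted p = 0.69) and also at E18.5 (0.33 ± 0.11, limma adjusted p = 0.27), with null above wild type both times, and differed by 0.03 ± 0.11 at P90.

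For Pmel, Tyrp1, Mitf and Trpm1 the genotype differences were within 0.21 of 0 at every age. The 95% intervals for Pmel were -0.24 to 0.25 at E18.5, -0.20 to 0.29 at P15 and -0.06 to 0.43 at P90. For Mitf they were -0.31 to 0.17, -0.17 to 0.30 and -0.19 to 0.28. Those of Tyrp1 reached 0.64 at P90. For Trpm1 the difference was -0.20 ± 0.11 at P15 and 0.20 ± 0.11 at P90.

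Counted by arrays that do not overlap, 3 genes were higher in null at P90 (Tyr, Dct and Trpm1) and 0 lower, where 6.42% of all genes were higher and 4.06% lower. At P15, 3 were higher (Dct, Mlana and Sox10) and 1 lower (Kcnj13), where 8.75% of all genes were higher and 7.75% lower. At E18.5, 1 was higher (Sox10) and 2 lower (Mitf and Kcnj13), where 7.95% were higher and 11.7% lower.

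**Figure D3:**
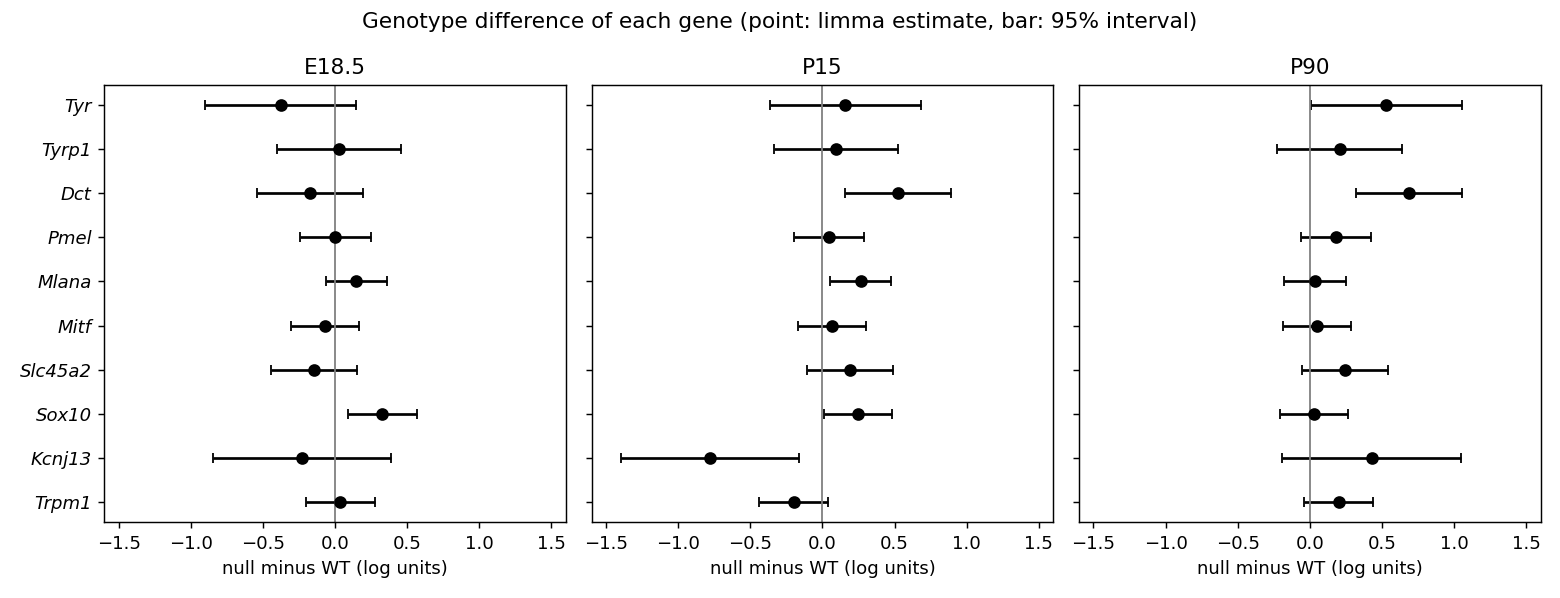
Null minus wild type (WT) for each gene in log units (horizontal axis) at E18.5, P15 and P90, with the limma estimate as a point and its 95% interval as a bar. All 10 points lie right of 0 at P90, from 0.03 for Sox10 to 0.69 for Dct, and only the bars of Tyr and Dct stay clear of 0 there.

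Kcnj13, the potassium channel, did not follow the pigment genes. In null it had 5.03, 4.71 and 4.74 at E18.5, 4.81, 4.89 and 4.72 at P15, then 6.35, 5.46 and 5.44 at P90. In wild type it had 5.03, 5.06 and 5.07 at E18.5, 5.63, 5.31 and 5.81 at P15, then 6.14, 4.71 and 5.11 at P90. All 3 null arrays lay below all 3 wild-type arrays at P15, and at P90 the genotypes overlapped widely. The genotype difference was -0.23 ± 0.29 at E18.5, -0.78 ± 0.29 at P15 (limma adjusted p = 0.59, unadjusted 0.017) and 0.43 ± 0.29 at P90, the last with -0.28 when a sex score was a covariate, 0.12 without wild type 2 and 0.84 without wild type 1. From P15 to P90 it rose by 0.95 ± 0.29 in null (limma adjusted p = 0.044), which ended without P90 null 1 (0.65), without any 1 of the P15 null arrays (0.90 to 0.99), with the sex score (0.76) and when only the arrays of those 2 groups were fitted (limma adjusted p = 0.057). The step in wild type was -0.26 ± 0.29.

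Genes of choroid plexus, the epithelium of the brain ventricles that also uses Kcnj13, moved with it. Their list held 9 genes, of which 7 were measured and all 7 reached a group mean above 3.39. The mean level of the 7 was 3.62 to 3.88 in null and 3.75 to 4.16 in wild type at E18.5, 4.15 to 4.44 in null and 4.90 to 5.29 in wild type at P15, and 4.79 to 5.55 in null and 3.96 to 5.08 in wild type at P90. At P15 the ranges were separate, and 6 of the 7 genes were lower in null without overlap of arrays (7.75% of all genes). Ttr, transthyretin, the main secreted protein of choroid plexus, had 5.48, 6.47 and 5.05 in null and 8.20, 7.76 and 8.39 in wild type at P15 (-2.45 ± 0.53, limma adjusted p = 0.25). At P90 it had 8.73, 8.07 and 7.63 in null and 8.33, 5.82 and 6.84 in wild type (1.15 ± 0.53, limma adjusted p = 0.44).

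With group means removed, Kcnj13 and the mean of the 7 choroid plexus genes had a Pearson r of 0.94 over the 18 arrays. It was 0.99 over the 6 arrays of P90 and 0.76 over the 12 of E18.5 and P15, and 0.82 without P90 null 1 and P90 wild type 1, the arrays with most Kcnj13. None of the other 19930 genes outside the list had so high an r with it. These values describe arrays that share a dissection and an RNA extract, and the part of choroid plexus tissue in the Kcnj13 differences was not tested. For the other 9 melanocyte genes r with the same list ran from -0.42 (Mlana) to 0.61 (Mitf). The retinal pigment epithelium, which holds Kcnj13 as well as Tyr, Tyrp1, Dct, Pmel and Mlana, was listed by 9 genes, of which 7 reached a group mean above the guide to dim genes and Rpe65, the visual cycle enzyme, did not (highest group mean 2.64). Of all genes 19.8% did not reach that guide. The mean level of the 9 was 4.17 to 4.32 in null and 4.48 to 4.55 in wild type at P15, and 4.41 to 4.57 in null and 4.17 to 4.34 in wild type at P90. This list shares Ttr and Otx2 with the choroid plexus list, so it is no separate measure. At both ages Ttr had the smallest p of the list (differences of -2.45 at P15 and 1.15 at P90). The median difference over the list was -0.06 at P15 and 0.15 at P90. Within groups the r of the list was 0.62 with Kcnj13 and 0.53 with Tyr. The part of retinal pigment epithelium in their levels was not tested.

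**Figure D4:**
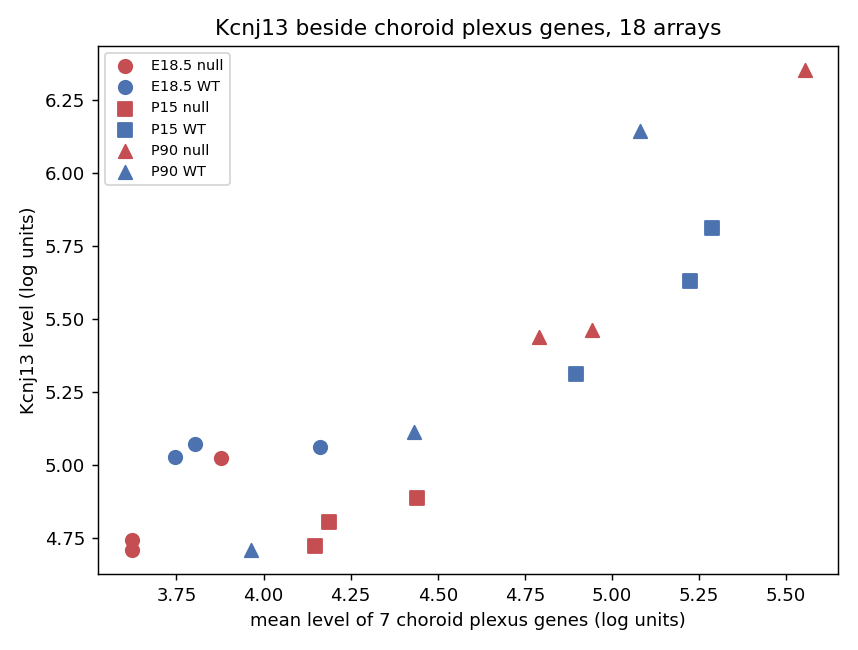
Kcnj13 level (vertical axis, log units) against the mean level of 7 choroid plexus genes (horizontal axis, log units) in the 18 arrays, with a symbol for each age and a colour for each genotype. The 3 P15 null arrays (Kcnj13 at 4.72 to 4.89) lie below and left of the 3 P15 wild-type arrays (5.31 to 5.81), and P90 null 1 and P90 wild type 1 are highest.

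The 10 genes did not vary as a block within groups. With group means removed, 5 of the 45 pairs had a Pearson r of 0.5 or more over the 18 arrays and 2 had -0.5 or less. Tyr, Dct and Slc45a2 formed the closest trio, with 0.68 for Tyr and Dct, 0.63 for Tyr and Slc45a2 and 0.70 for Dct and Slc45a2. That trio rested on E18.5 null 2 and P90 null 3, which were low for all 3 genes within their groups. Without these 2 arrays, picked after their values were seen, r was 0.04, -0.25 and 0.19. Mitf and Kcnj13 had 0.68, which stayed at 0.68 without them. Mlana ran against the trio, with -0.51 against Tyr and -0.64 against Slc45a2 (-0.22 and -0.49 without the 2 arrays). Pmel and Tyrp1, which stepped together with age, had 0.98 over the 6 group means and 0.19 within groups.

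**Figure D5:**
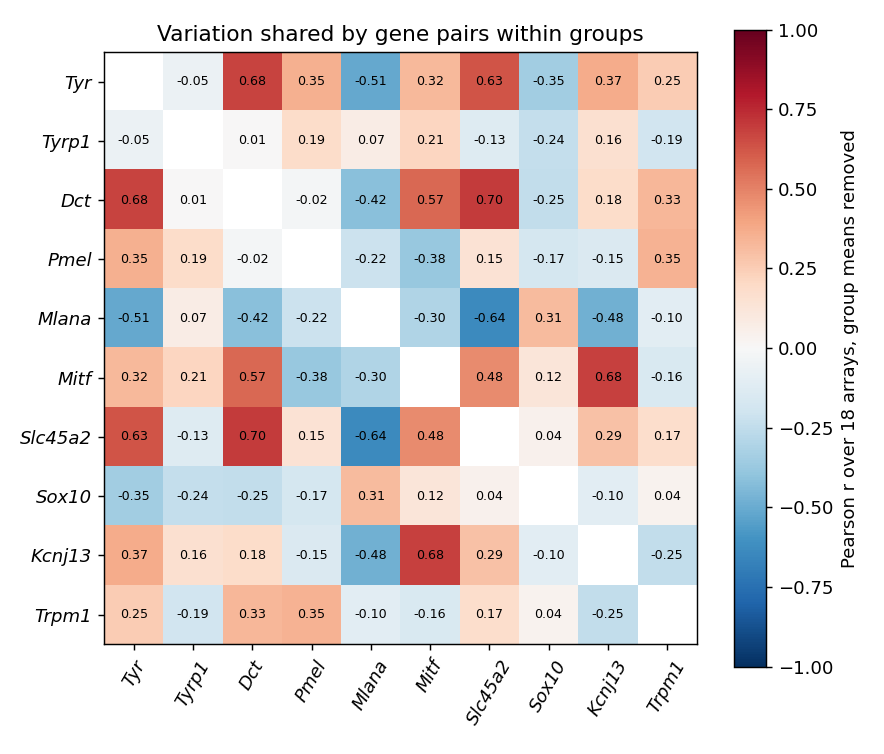
Pearson r of each pair of the 10 genes over 18 arrays after group means were removed, printed in each cell and coloured from blue (-1) to red (1). Tyr, Dct and Slc45a2 share r of 0.63 to 0.70, and Mlana has negative r with 7 of the other 9 genes.

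Of all genes outside the 10, those closest to the average within-group deviation of Tyr, Tyrp1, Dct, Pmel, Mlana and Slc45a2 were Ssxb3 (r = 0.89 over 18 arrays), Erich1 (0.85), Snord16a (0.85), Hsf3 (0.84) and Ell (0.83), followed by Rttn, Olfr203, B130055M24Rik, 1700010I14Rik, Gm5662, Micall1, Rgs21, H2aj, Rprd1b and Fam221a (0.77 to 0.81). None of these 15 was on the pigment, melanocyte development or glial lists. The median r of the 31 measured genes of the pigment and melanosome list was -0.0031 (-0.45 to 0.58), against 0.02 over all genes.

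The wider pigment list, 31 of 32 genes measured, covered melanosome transport, sorting and pigment signalling. Between genotypes it had 0 called genes at E18.5 and P15 and 1 at P90, Gpnmb, with medians of -0.06, 0.04 and 0.01 against -0.02, 0.01 and 0.01 over all genes. Gpnmb, a glycoprotein of melanosomes that macrophages also make, had 5.75, 5.91 and 6.24 in null and 3.96, 4.03 and 4.38 in wild type at P90, a rise of 1.84 ± 0.19 (limma adjusted p = 0.00052). At that age 2 of the 14 macrophage genes were called higher in null and 0 lower, where 0.296% of all genes were called. With a sex score as a covariate 0 genes of the series passed between genotypes at P90, so the Gpnmb and macrophage calls ended. That score separates the genotypes at P90, so this loss does not tell sex from genotype. Oca2, the melanosome membrane protein of the pink-eyed dilution locus, had 3.76, 3.30 and 3.19 in null and 3.19, 2.74 and 2.84 in wild type at P90 (0.50 ± 0.15, limma adjusted p = 0.22). At P15 it had 2.79, 3.00 and 2.74 in null and 3.14, 3.05 and 3.34 in wild type (-0.34 ± 0.15, limma adjusted p = 0.67), a separation in the direction of Kcnj13 and opposite to that of Dct. Pomc, the precursor of melanocyte-stimulating hormone, differed by 1.53 ± 0.48 at P15 (limma adjusted p = 0.52), where null 2 had 6.45 and the other P15 arrays 3.29 to 4.30.

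From E18.5 to P15, 9 of the 31 genes rose and 4 fell in null, where 20.3% of all genes rose and 20.5% fell. In wild type 8 rose and 8 fell, where 19.7% of all genes rose and 21.9% fell. Slc7a11, the cystine exchanger that feeds pheomelanin synthesis, rose by 2.18 ± 0.18 in null (limma adjusted p = 1.3e-07) and by 1.65 ± 0.18 in wild type (limma adjusted p = 1.9e-06). Lyst, a regulator of lysosome-related organelles, rose by 1.01 ± 0.09 in null and 0.94 ± 0.09 in wild type, whereas Atp7a, the copper pump that loads tyrosinase, fell by 0.61 (SE 0.08) in null and by 0.77 (SE 0.08) in wild type. Most of these genes also serve cells without pigment.

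Of 18 measured genes of melanocyte development and signalling, 0 were called between genotypes at any age. The nearest was Met, the receptor of hepatocyte growth factor, with 5.45, 5.48 and 5.07 in null and 4.86, 4.51 and 4.80 in wild type at P90 (0.61 ± 0.12, limma adjusted p = 0.052). Its null arrays lay above its wild-type arrays. Kit, the receptor that keeps melanoblasts alive, had 6.71, 6.86 and 7.22 in null and 6.91, 7.06 and 7.02 in wild type at P90, with overlap. From E18.5 to P15, 5 genes of the list rose and 8 fell in null, and 5 rose and 9 fell in wild type, beside the same shares of all genes (20.3% and 20.5% in null, 19.7% and 21.9% in wild type). Among them Sox9, a factor of cartilage and glia as well as crest, fell by 1.88 (SE 0.06) in null and by 1.93 (SE 0.06) in wild type, and Snai2, a factor of migrating crest cells, fell by 1.40 (SE 0.15) in null and by 1.75 (SE 0.15) in wild type (limma adjusted p = 3.7e-11 and 4.1e-11 for Sox9, 1.7e-06 and 1.4e-07 for Snai2).

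The vestibular epithelium has its own marker lists. From E18.5 to P15, 2 of the 9 otoconia and acellular membrane genes rose and 7 fell in null (20.3% and 20.5% of all genes). In wild type 1 rose and 6 fell (19.7% and 21.9% of all genes). The mean level of the 9 was 5.33 to 5.61 in null and 5.46 to 5.60 in wild type at E18.5, and 4.37 to 4.45 in null and 4.11 to 4.45 in wild type at P15. At P90 it was 4.35 to 4.66 in null and 3.88 to 4.10 in wild type, with all 9 differences positive, and Otogl, a tectorial and otolithic membrane protein, was higher in null by 0.91 ± 0.15 (limma adjusted p = 0.018). The mean of the 10 hair cell genes at P90 was 4.09 to 4.31 in null and 3.85 to 3.95 in wild type, with 7 differences positive and 3 negative. Ocm, a calcium buffer of hair cells, was higher in null by 0.73 ± 0.15 (limma adjusted p = 0.049). With the sex score, which separates the genotypes at P90, 0 genes of the series passed there, so the Otogl and Ocm calls ended. Of the 7 measured dark cell genes 4 had a positive and 3 a negative difference at P90, with 0 called. The part of the amount of epithelium in the melanocyte gene levels was not tested.

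Skin, another source of melanocytes, could enter a dissection, and 9 of its 11 measured epidermal genes reached a group mean above 3.39. Of all genes 19.8% did not reach that level. Their mean level was 3.83 to 4.21 in null and 3.82 to 3.99 in wild type at E18.5, 3.10 to 3.24 in null and 3.13 to 3.25 in wild type at P15, and 3.13 to 4.53 in null and 3.43 to 4.04 in wild type at P90. In both genotypes the P15 range lay below the E18.5 range. From E18.5 to P15, 6 of the 11 epidermal genes fell and 0 rose in null, where 20.5% of all genes fell and 20.3% rose. In wild type 4 fell and 0 rose, where 21.9% of all genes fell and 19.7% rose. From P15 to P90, 2 rose and 0 fell in each genotype. Of the 10 melanocyte genes, Kcnj13 rose in null and Mlana and Sox10 rose in wild type in that step, and 0 fell. Of all genes 6.12% rose and 6.83% fell in null, and 8.08% rose and 9.78% fell in wild type. The part of skin in the melanocyte gene levels was not tested.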

How the data were processed

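Vestibular organs were measured on 18 Affymetrix Mouse Gene ST arrays, and the authors' table gives log values for 28853 probe sets. How probes were summarized and corrected, and which log base was used, no label states. A natural log fits the range of the deposited values, since their maximum of 10.03 is an intensity of 22704 with base e and 1046 with base 2. Deposited array medians ran from 3.88 to 4.82, so the arrays were quantile normalized, which sets changes relative to other genes. Names came from the platform annotation, with 21789 probe sets of 1 symbol, 1621 of several and 5443 without an entry. Current symbols were taken by gene identifier from RefSeq GRCm38.p6 (21698 matched). The probe set with the highest mean stood for its gene, with no intensity filter, which gave 19938 genes. limma 3.58.1 in R 4.3.3 (lmFit, eBayes, 2.98 prior degrees of freedom) fitted 6 group means to all 18 arrays, and was tested on simulated data. The number of arrays limits the precision. The 10 members are all named. From other lists, up to 4 genes with the smallest p per comparison could be named, and 15 genes by within-group r. Kit was named after its values were seen. Members, lists and tests were chosen with earlier results of these data known. No 2 arrays were identical. Alternatives covered scaling, probe sets, dim genes, arrays in the fit, the replicate block, array weights, sex, prior and single arrays.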

Additional observations from a re-analysis of the deposited data

Results flagged for a closer look

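Genes with a genotype difference that changed with age were looked for among the 10 melanocyte genes and the other genes named. None of the 10 met this, and 4 of the other genes did. For Gpnmb the F-test of genotype by age passed (F = 33.2, limma adjusted p = 0.009). With a term for the 4 arrays of the third component 0 genes of the series passed it, and sex differed between the genotypes at P90. For 3 genes all null arrays lay on one side of all wild-type arrays at one age and on the other side at another, without the F-test passing. Oca2 differed by -0.31 at E18.5, -0.34 at P15 and 0.50 at P90 (limma adjusted p of the F-test = 0.13). Slc7a11 differed by -0.47 at E18.5 and 0.28 at P90 (limma adjusted p of the F-test = 0.29). Rpe65, dim in every group, differed by 0.59 at E18.5 and -0.29 at P15 (limma adjusted p of the F-test = 0.21).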

How the results depend on the processing

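Of 63 single differences or F values of the 10 genes, 14 were called, and none of these 14 changed direction in any of the alternatives run. For P15 to P90 only the called differences were among the 63, and an F value cannot turn sign. The counts below are therefore not those of all differences and may overstate how often direction was kept. In the 1138 alternative values of the 63, 1034 kept direction and side of the threshold, 41 lost a call, 16 gained one and 47 turned sign, all 47 at uncalled differences. The cause was not tested, except that leaving out dim genes, here those with a highest group mean at or under 5.09, the median over all genes, left Dct, Sox10 and Kcnj13, 3 of the 10, in the test and that single groups or left-out arrays leave fewer arrays.

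The count of called genes changed as follows. For wild type E18.5 to P15 (7) it was 4 with values as deposited (3 lower and 1, Kcnj13, higher), 9 with array medians subtracted, 9 with array weights, 9 with only the arrays compared (8 lower and 1, Kcnj13, higher), 8 with either handling of the 4 arrays named next, 2 with dim genes left out and 4 to 7 without single replicates. For wild type P15 to P90 (2) it was 4 as deposited, 1 with dim genes left out, 0 with only the arrays compared, 0 with a sex score, 0 with a term for P90 wild type 1 and 2 with E18.5 null 2 and 3, 0 with these 4 arrays left out (both chosen after seeing the data) and 0 to 2 without single replicates. For null E18.5 to P15 (4) it was 3 as deposited, 5 with the 4 arrays left out, 1 with dim genes left out and 4 to 4 without single replicates. For null P15 to P90 (1) it was 8 as deposited, 2 with array medians subtracted, 2 with array weights, 0 with only the arrays compared, 0 with a sex score and 0 to 2 without single replicates. Between genotypes it was 1 with array weights at P90 and 1 in the F-test with array weights, 0 to 1 at P90 without single replicates, and 0 to 0 at E18.5, at P15 and in the F-test. The count over all genes moved more, from 0 to 387 at E18.5, 10 to 851 in the F-test and 15 to 674 at P90 without single replicates. For null P15 to P90 (2582 in the main fit) it was 7762 as deposited, 2907 with medians subtracted and 5718 with array weights. For wild type E18.5 to P15 (8283) it was 5711, 9029 and 10069 in the same settings. For wild type P15 to P90 (3561) it was 5568 as deposited, 1041 with only the arrays compared and 874 with a sex score. For null E18.5 to P15 (8128) it was 6524 as deposited. The P90 genotype count of 59 over all genes was 587 with array weights, 10 with the term for the 4 arrays and 0 with a sex score. The P90 calls of Gpnmb, Otogl, Ocm and the 2 macrophage genes thus ended with the sex score. Since that score separates the genotypes at P90, this does not tell sex from genotype.

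Without normalization the median of all genes shifted by 0.25 in null and 0.11 in wild type from E18.5 to P15, by 0.39 and 0.20 from P15 to P90, by -0.15 between genotypes at E18.5 and by 0.17 at P90. With array medians subtracted it shifted by -0.18 in wild type from E18.5 to P15 and by -0.12 between genotypes at E18.5.

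As deposited, null E18.5 to P15 turned to 0.28 for Kcnj13, 0.18 for Mitf, 0.074 for Mlana, 0.29 for Slc45a2 and 0.18 for Tyr, and E18.5 null minus wild type to -0.076 for Pmel and -0.067 for Tyrp1. With medians subtracted Pmel had -0.048 and Tyrp1 -0.038 there, and with array weights Pmel had -0.018 and Mlana at P90 -0.017. With a sex score null E18.5 to P15 was 0.037 for Kcnj13, and P90 null minus wild type was -0.28 for Kcnj13 and -0.040 for Mitf. With the mean of both Mitf probe sets null E18.5 to P15 was 0.23 and P15 null minus wild type -0.059. For the 4 arrays, Dct at E18.5 was 0.059 with them left out and 0.040 with the term, its null E18.5 to P15 step -0.069 and -0.050, and at E18.5 Slc45a2 was 0.058 and Tyr 0.27 with them left out. Without single replicates the null E18.5 to P15 step ran from -0.078 to 0.081 for Kcnj13, -0.19 to 0.089 for Slc45a2 and -0.44 to 0.22 for Tyr. At E18.5 null minus wild type ran from -0.082 to 0.14 for Pmel, -0.25 to 0.031 for Slc45a2, -0.044 to 0.11 for Trpm1 and -0.049 to 0.15 for Tyrp1. At P15 it ran from -0.012 to 0.14 for Mitf and -0.16 to 0.34 for Tyrp1, and at P90 from -0.031 to 0.17 for Mitf, -0.031 to 0.13 for Mlana and -0.079 to 0.092 for Sox10.

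Same-numbered null and wild-type arrays of an age had correlations of their deviations from -0.19 to 0.24, with 7 of 9 pairs at 0.1 or below, so the numbers were not taken to pair arrays. With the replicate block the count for wild type P15 to P90 was 1 in place of 2, and the Tyr call in wild type from E18.5 to P15 ended (adjusted p = 0.056).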
